A study of Homo sapiens with 18 samples.

Results

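The genes described here are 10 angiogenic factors, namely VEGFA, VEGFB, VEGFC, PGF, ANGPT1, ANGPT2, ANGPTL4, FGF2, TIE1 and PECAM1, followed across human osteosarcoma cells recovered from tumors grown in mice. Probe sets annotated to exactly 1 of these genes were taken, which gave 26 of the 54675 probe sets of the table. In all, 41097 probe sets carried exactly 1 gene, for 19775 genes. VEGFA had 4 probe sets, VEGFB 1, VEGFC 1, PGF 2, ANGPT1 3, ANGPT2 4, ANGPTL4 2, FGF2 2, TIE1 2 and PECAM1 5.

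The study asked how gene expression differs between slow-dividing, dye-retaining cells and the bulk cells of the same osteosarcoma. 143B and MNNG/HOS (MNNG below) are established human osteosarcoma cell lines, and all cells carried the green fluorescent protein ZsGreen and PKH26, a membrane dye diluted at each division. The groups were 143B_High (dye-retaining cells of 143B bone tumors, 3 arrays, which the labels call tumor-initiating cells), 143B_Low (dye-diluted bulk cells of 143B bone tumors, 5 arrays), MNNG_Lung (lung metastases of MNNG tumors, 2 arrays), MNNG_High (4 arrays) and MNNG_Low (4 arrays). Per the study design, 150000 High and 700000 Low cells were sorted from a tumor, and a pair of 143B_High arrays each held the pooled High cells of 2 tumors, 143B-51&52 and 143B-54&55. Each line is a single cell line. The sources used here do not give the age, sex or strain of the host mice, or whether the lung cells were sorted.

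Angiogenic factors act between tumor cells and blood vessels. VEGFA, VEGFB and PGF are secreted ligands of the receptor FLT1, VEGFA also signals through KDR, and VEGFC is the ligand of the lymphatic receptor FLT4. ANGPT1 and ANGPT2 are ligands of the endothelial receptor TEK, ANGPT1 as its agonist and ANGPT2 as a context-dependent antagonist, and TIE1 is the related orphan receptor. ANGPTL4 is a secreted inhibitor of lipoprotein lipase that hypoxia and fatty acids induce, FGF2 is a heparin-binding mitogen of endothelial cells and fibroblasts, and PECAM1 is an adhesion molecule of endothelial cells, platelets and leukocytes. VEGFA and ANGPTL4 are textbook targets of hypoxia-inducible factors.

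Promoter windows of RefSeq on GRCh38.p14, each reaching from 250 bases before to 50 bases after a transcription start, were matched by symbol for 6 of the 10 members, with 7 windows in all. VEGFA, ANGPT1, ANGPT2 and PECAM1 had no entry. The window of ANGPTL4 is shown because ANGPTL4 was the member that followed VEGFA across the arrays, with capitals marking the core of the hypoxia response element (ACGTG or GCGTG, searched on both strands), here CACGT, the reverse complement of ACGTG. The window of TIE1 is shown because its probe set 204468_s_at separated the lines, with capitals marking the core of ETS factor sites, GGAA, searched on both strands. They lie at chr19:8363905-8364204 and chr1:43300732-43301031, each on the plus strand.
ANGPTL4: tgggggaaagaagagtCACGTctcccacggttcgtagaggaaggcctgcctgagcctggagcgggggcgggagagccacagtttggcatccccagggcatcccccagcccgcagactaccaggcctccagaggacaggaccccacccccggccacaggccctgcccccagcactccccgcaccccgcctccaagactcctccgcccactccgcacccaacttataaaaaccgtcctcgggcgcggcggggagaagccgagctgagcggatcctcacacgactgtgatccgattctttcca
TIE1: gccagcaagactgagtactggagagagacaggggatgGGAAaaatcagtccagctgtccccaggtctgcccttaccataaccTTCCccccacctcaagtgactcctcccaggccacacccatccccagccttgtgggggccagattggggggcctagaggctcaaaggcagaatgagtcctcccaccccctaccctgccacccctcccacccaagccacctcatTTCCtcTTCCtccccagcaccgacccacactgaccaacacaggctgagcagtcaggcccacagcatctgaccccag
ANGPTL4 held 1 hypoxia core and TIE1 held 0. FGF2, VEGFB and VEGFC held 1 each, as did each of the 2 windows of PGF. Among all 35116 windows, 48.4% held at least 1 hypoxia core. TIE1 held 4 ETS cores, 1 on the plus and 3 on the minus strand, where 95.5% of all windows held at least 1 and the median was 3. These matches describe letters in the window and say nothing of binding.

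The deposited values were log2 signals, so levels are compared between arrays for the same probe set and never between probe sets. No detection call was given, so 5.36, the median of the table, served as a floor that at least 3 arrays had to reach for a gene to be tested, which left 14418 genes. Of the 10 members, 9 were tested, and ANGPT1 was not, because none of its 3 probe sets reached the floor on 3 arrays. TIE1 and FGF2 passed only through the 8 143B and 2 lung arrays, where they were high, and ANGPT2 through those and 2 MNNG_High arrays, so a call higher in those arrays follows in part from the floor. The spread of the log2 signal over probe sets was narrowest on the lung arrays, with an interquartile range of 2.09 and 2.28. It was 2.76 to 3.18 in MNNG_High and lay between 3.26 and 3.48 in the other groups. Arrays quantile-normalized together usually have similar spreads, so these arrays may not share 1 normalization, which touches the lung differences most, and no source used here says which arrays were processed together. Mouse host cells can register on these human probes only by cross-hybridization. A date in the sample descriptions takes 3 values, called tags here. All 8 143B arrays carry tag 3, so line and date cannot be told apart. All MNNG_High arrays, both lung arrays and the Low cells of MNNG-1231 carry tag 2, and the other 3 MNNG_Low arrays tag 1. The osteosarcoma label was checked on VIM, whose group means were 14.28 to 14.57, and on RUNX2, the osteoblast transcription factor, at 8.66 in 143B_High, 8.83 in 143B_Low, 6.68 in MNNG_Lung, 10.10 in MNNG_High and 10.50 in MNNG_Low. The mature osteoblast markers ALPL, IBSP and SP7 had means under the floor in all 4 bone groups, and of 6.04, 6.58 and 6.38 in MNNG_Lung. COL1A1 averaged 8.98 and SPARC 7.00 in MNNG_Lung, against 13.55 and 12.14 in MNNG_Low, while COL1A2 averaged 8.44 against 8.56. SPP1 averaged 8.44 in 143B_High and 7.88 in 143B_Low, against 4.72 in MNNG_High and 5.39 in MNNG_Low.

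**Figure D1:**
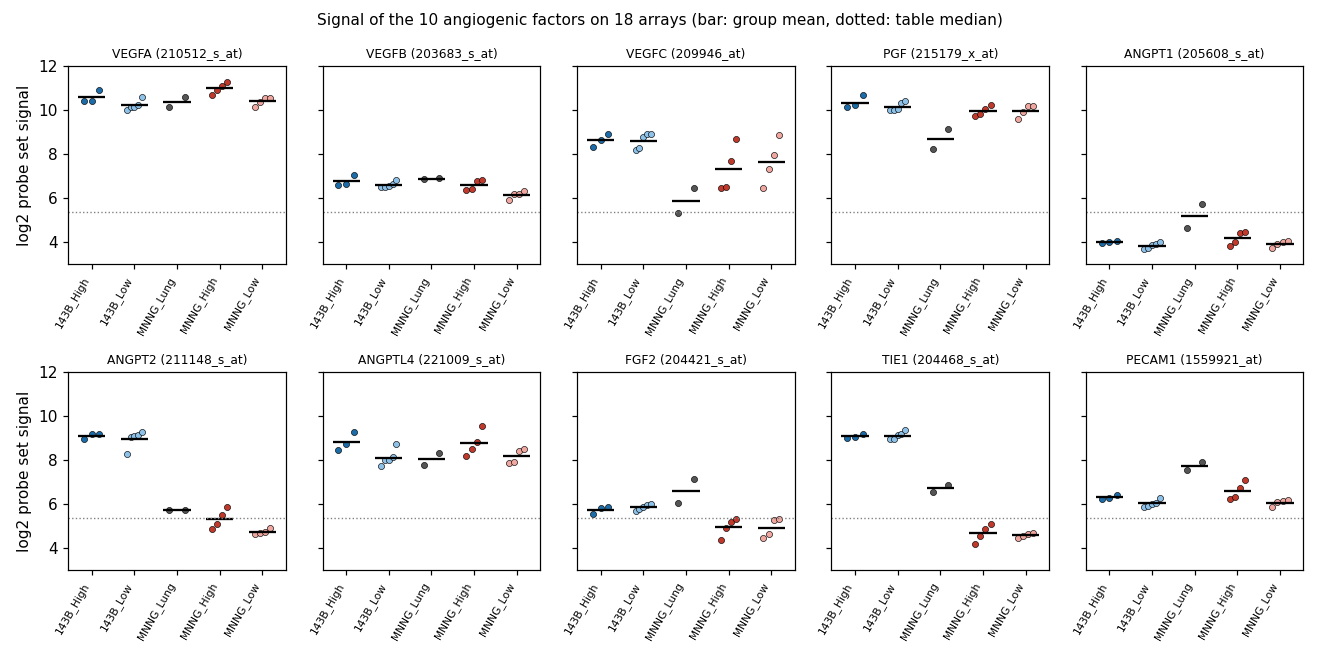
Log2 signal of the probe set that represents each of the 10 members, for 3 143B_High, 5 143B_Low, 2 MNNG_Lung, 4 MNNG_High and 4 MNNG_Low arrays (points), with group means (bars) and the floor of 5.36 (dotted). ANGPT2 and TIE1 separate the 143B bone arrays from the MNNG bone arrays, VEGFA and PGF lie between 9.59 and 11.30 on every bone array, and ANGPT1 stays under the floor in every bone group.

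The largest differences among the angiogenic factors separated the cell lines. ANGPT2 and TIE1 were high in 143B cells and near or under the floor in MNNG cells, in High and Low cells alike. In High cells, ANGPT2 was 13.67-fold and TIE1 21.31-fold higher in 143B, and in Low cells they were 18.67-fold and 23.04-fold higher. FGF2 was also called higher in 143B in both fractions, though not after a second quantile normalization. Because MNNG means of these 3 genes lay under the floor, their directions are firmer than their sizes. Fewer cells of a type and less RNA per cell cannot be told apart in these bulk samples.

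For ANGPT2, the antagonist ligand of TEK, probe set 211148_s_at read 9.17, 8.96 and 9.21 in 143B_High (143B-1253 and the pools 143B-51&52 and 143B-54&55), against 5.88, 5.53, 4.87 and 5.09 in MNNG_High (MNNG-1231, MNNG-1232, MNNG-1233, then MNNG-1235, the order used below). In 143B_Low it read 9.08, 9.14, 9.05, 9.27 and 8.27 (143B-1251 to 143B-1255), against 4.72, 4.63, 4.69 and 4.92 in MNNG_Low. The lowest 143B array, the Low cells of 143B-1255 at 8.27, lay above the highest MNNG bone array at 5.88. The differences were 3.77 ± 0.23 (SE) between High cells, with an adjusted p of 1.04e-09 in the limma fit, and 4.22 ± 0.20 between Low cells, with an adjusted p of 1.88e-11.

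The other 3 ANGPT2 probe sets gave the same order of lines with larger differences. Probe set 205572_at read 9.96, 10.02 and 10.17 in 143B_High against 3.44, 3.50, 4.05 and 3.99 in MNNG_High, a difference of 6.31 ± 0.23. Its difference between Low cells was 6.54 ± 0.20, that of 236034_at was 5.09 ± 0.19 in High and 5.53 ± 0.17 in Low cells, and that of 237261_at was 4.96 ± 0.29 in High and 5.46 ± 0.26 in Low cells. Across the 18 arrays, which share the line contrast, the 4 probe sets correlated with each other at r of 0.98 to 0.99.

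TIE1, the orphan receptor paired with TEK, was nearly constant within 143B. Probe set 204468_s_at read 9.20, 9.06 and 8.998 in 143B_High against 4.53, 5.09, 4.88 and 4.18 in MNNG_High, and 8.94, 9.13, 8.97, 9.35 and 9.17 in 143B_Low against 4.55, 4.63, 4.71 and 4.46 in MNNG_Low. No array of either line came near the other line. The differences were 4.41 ± 0.18 in High cells (limma adjusted p 5.21e-12) and 4.53 ± 0.16 in Low cells (2.97e-13). The other TIE1 probe set, 1560657_at, read 2.90 to 3.41 on all 16 bone arrays and showed no such difference, and over the 18 arrays the 2 probe sets correlated at r of -0.07. With the mean of both probe sets, the TIE1 difference was 2.18 in High and 2.26 in Low cells and was still called.

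**Figure D2:**
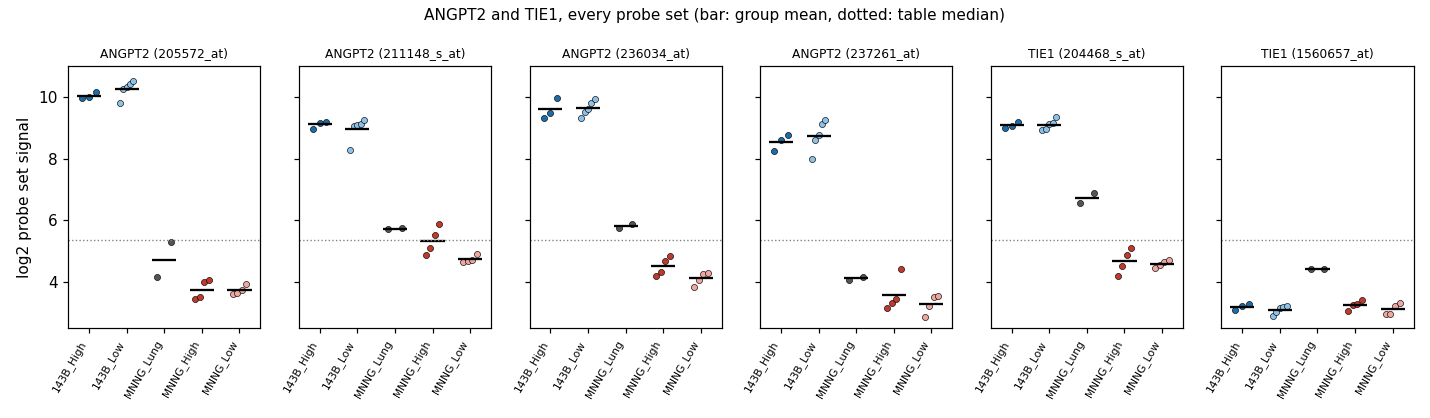
Log2 signal of the 4 ANGPT2 and 2 TIE1 probe sets on every array (points), with group means (bars) and the floor of 5.36 (dotted). All 4 ANGPT2 probe sets and TIE1 204468_s_at lie between 7.98 and 10.53 in 143B_High and 143B_Low and between 2.86 and 5.88 in MNNG_High and MNNG_Low, while TIE1 1560657_at stays under the floor on every array.

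Endothelial markers were read beside TIE1 and ANGPT2. CDH5, the endothelial cadherin, had means of 3.67 in 143B_High and 3.60 in 143B_Low, against 3.59 in MNNG_High and 3.47 in MNNG_Low. KDR lay at 3.43 and 3.41 in the 143B groups against 3.95 and 3.47 in the MNNG groups, and TEK at 4.40 and 4.58 against 4.92 and 4.76. EMCN, SELE and ERG also had means under the floor in all 4 bone groups. ERG averaged 4.81 in 143B_High against 3.89 in MNNG_High, and 4.82 in 143B_Low against 4.13 in MNNG_Low. Also under the floor, SOX18 had higher means in 143B in each fraction, and MMRN2 and NOS3 lower ones. Of 18 endothelial markers on the array, 9 passed the floor, and 2 of these were called higher in 143B in each fraction, namely ROBO4 (1.301 ± 0.16 in High and 0.93 ± 0.14 in Low cells) and SOX17 (1.80 ± 0.34 and 1.49 ± 0.30). The log2 of the summed signal of the 18 markers was 9.64 to 10.05 in 143B_High against 9.27 to 9.60 in MNNG_High, and 9.56 to 9.86 in 143B_Low against 9.23 to 9.40 in MNNG_Low. The part of endothelial cells in the TIE1 and ANGPT2 differences was not tested.

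FGF2 204421_s_at read 5.82, 5.56 and 5.88 in 143B_High against 4.89, 5.32, 4.38 and 5.17 in MNNG_High, and 5.70 to 5.99 in 143B_Low against 4.47 to 5.31 in MNNG_Low. Every 143B array exceeded every MNNG bone array, none of which reached the floor, by 0.81 ± 0.26 in High cells (limma adjusted p 0.0206) and 0.93 ± 0.23 in Low cells (0.00387). Both calls were lost after the second quantile normalization (limma adjusted p 0.0695 in High and 0.0503 in Low cells). That in High cells was also lost without 143B-1253 (0.0622), without 143B-54&55 (0.0714) or without the High cells of MNNG-1233 (0.0688). The second FGF2 probe set, 204422_s_at, reached the floor on 1 array and did not separate the lines. It gave tumor MNNG-1235 the highest MNNG signal in each fraction, 5.29 in High and 5.43 in Low cells, against 3.32 to 4.02 for the other tumors. In 143B it read 4.18 to 4.49 in High and 4.53 to 5.24 in Low cells, below MNNG-1235 in each fraction. Over the 18 arrays the FGF2 probe sets correlated at r of 0.22.

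VEGFB was called higher in 143B_Low than in MNNG_Low, with 6.51 to 6.83 against 5.94 to 6.32 and a difference of 0.45 ± 0.13 (limma adjusted p 0.0172). This call was lost after the second quantile normalization (0.37, adjusted p 0.0954), with the GAPDH 3' to 5' difference as a covariate (0.42, 0.0665) and without the Low cells of MNNG-1233 (0.37, 0.0727). Between High cells the VEGFB difference was 0.17 ± 0.15 (0.389), and it was called with array weights (0.33, limma adjusted p 0.0227). VEGFC, the lymphatic ligand, differed by 1.29 ± 0.51 in High (0.0571) and 0.96 ± 0.45 in Low cells (0.124), neither of which passed, and its MNNG values spread widely between tumors. Without the MNNG-1235 array of the fraction both were called, at 1.74 in High (limma adjusted p 0.00750) and 1.37 in Low cells (0.0279). With array weights both were called too (0.96, 0.0291 in High and 0.81, 0.0339 in Low cells). VEGFC was also called between High cells without the lung arrays (1.29, 0.0450) and with the GAPDH covariate (1.48, 0.0372). VEGFA, PGF, ANGPTL4 and PECAM1 were not called between lines at the gene level. VEGFA differed by -0.42 ± 0.19 between High cells (limma adjusted p 0.0897), and it was called lower in 143B_High after the second quantile normalization (-0.56, 0.0289), with array weights (-0.39, 0.0246), without 143B-1253 (-0.58, 0.0426) and without the High cells of MNNG-1233 (-0.52, 0.0478). PGF differed by 0.38 ± 0.22 between High cells (0.168) and was called higher in 143B_High with the mean over its probe sets (0.62, 0.0294). At the probe set level, PGF 209652_s_at was called higher in 143B_High (0.85 ± 0.28) and PECAM1 208982_at in 143B_Low (0.78 ± 0.24).

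In counts, 3 of the 9 tested members were called between 143B_High and MNNG_High, where 36.1% of all tested genes were called, and 4 of 9 between 143B_Low and MNNG_Low, where 28.8% were. All of these calls were higher in 143B, a direction that the floor itself favored for ANGPT2, TIE1 and FGF2, and with no floor the same 3 were called higher in both fractions. The median difference of the 9 was 0.38 in High cells against 0.01 over all genes, and 0.45 in Low cells against -0.04, which carries the same effect of the floor. Of the 26 probe sets, 7 were called in High cells (22.6% of all single-gene probe sets) and 8 in Low cells (18.7%). The share in High cells lies near the background. Macrophage and platelet markers moved the other way: 5 of 8 tested macrophage and 4 of 4 platelet markers were lower in 143B_High than in MNNG_High, and 1 of 8 and 0 of 4 in 143B_Low than in MNNG_Low.

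Among 12 tested receptors of these ligands, FLT4, the VEGFC receptor, was higher in 143B by 1.12 ± 0.25 in High and 1.35 ± 0.22 in Low cells. NRP2, a VEGFC co-receptor, was higher by 0.78 ± 0.22 and 0.87 ± 0.19. ITGB3 was called higher in High cells (0.69 ± 0.26), and FGFR3 lower in Low cells (-0.87 ± 0.19). That made 3 receptors higher and 0 lower in High cells, where 36.1% of all tested genes were called. In Low cells 2 were higher and 1 lower, where 28.8% of all tested genes were called. The same shares stand beside the counts between lines of the lists that follow.

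Other angiogenic regulators differed between lines in either direction. Of 22 tested pro-angiogenic factors beyond the members, 7 were higher and 3 lower in 143B_High than in MNNG_High, and 7 higher and 4 lower in 143B_Low than in MNNG_Low. PDGFA (1.31 ± 0.15 in High and 1.33 ± 0.13 in Low cells) and the vasoconstrictor EDN1 (1.43 ± 0.26 and 1.50 ± 0.23) were higher, and the heparin-binding cytokine PTN was lower (-2.16 ± 0.36 and -3.01 ± 0.31). Of 17 tested inhibitors, 4 were higher and 3 lower in High cells, and 4 higher and 4 lower in Low cells. THBS2, a matrix inhibitor of angiogenesis, was higher by 3.89 ± 0.24 and 4.06 ± 0.21, whereas TIMP2 (-2.65 ± 0.48 and -2.65 ± 0.42) and COL18A1 (-1.37 ± 0.21 and -1.39 ± 0.18), the parent of endostatin, were lower.

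Among 13 tested regulators of VEGF and ANGPTL4 transcription, 3 were higher and 1 lower in each fraction. ETS1, a transcription factor of the ETS family, averaged 11.20 in 143B_High against 9.87 in MNNG_High and 11.33 in 143B_Low against 10.20 in MNNG_Low. The differences were 1.33 ± 0.20 and 1.13 ± 0.18. The part of ETS1 in the TIE1 difference was not tested. PPARG, a nuclear receptor known to induce ANGPTL4, was higher by 1.04 ± 0.29 and 0.73 ± 0.26, while ANGPTL4 itself differed by 0.07 ± 0.29 and -0.06 ± 0.26. Of 24 hypoxia-response genes, 1 was higher and 6 lower in High cells and 2 higher and 8 lower in Low cells, with EGLN3 at -1.43 ± 0.24 and -1.73 ± 0.21.

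Between dye-retaining and bulk cells, VEGFA was higher in MNNG_High by 0.60 ± 0.17, or 1.52-fold, and in the High cells of all 4 MNNG tumors. VEGFB, PECAM1 and ANGPT2 were also called higher in MNNG_High. In 143B tumors no member passed the test. The probe sets that represent VEGFA, ANGPTL4 and PECAM1 were higher in High cells in all 3 pairs, and the dim FGF2 probe set 204422_s_at was lower in all 3. The share of all genes with such agreement was not measured.

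VEGFA 210512_s_at read 11.30, 10.94, 10.69 and 11.11 in MNNG_High, against 10.58, 10.37, 10.14 and 10.54 in MNNG_Low (same order of tumors). The groups did not overlap. The High minus Low difference within a tumor was 0.56 to 0.72, and the limma adjusted p was 0.0220. At this signal level most probe sets fell in MNNG_High, with a median of -0.35 and a 90th percentile of -0.02 over the 1403 probe sets between 10 and 11 in MNNG_Low. Probe set 210513_s_at differed more, by 0.999 ± 0.19 with 0.58 to 1.28 within tumors, and 211527_x_at and 212171_x_at were higher in 4 of 4 tumors without being called.

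In 143B, VEGFA 210512_s_at read 10.92, 10.42 and 10.43 in 143B_High, against 10.16, 10.24, 10.62, 10.16 and 9.999 in 143B_Low. The groups overlapped through 143B-1253, whose Low cells were the highest of their group. Within pairs, where a pool of High cells was set against the mean of its 2 Low arrays, the difference was 0.22 to 0.35. The fitted difference was 0.36 ± 0.18, with a limma adjusted p of 0.961. Within pairs 210513_s_at (0.50 to 0.70) and 212171_x_at (0.18 to 0.28) were also higher in High cells, whereas 211527_x_at differed by 0.60 and 0.36 in 143B-1253 and 143B-51&52 and by -0.11 in 143B-54&55. PECAM1 1559921_at differed by 0.12 to 0.40 and PGF 209652_s_at by 0.28 to 0.49 in the 3 pairs, while PGF 215179_x_at differed by -0.03 to 0.52. Of the other PECAM1 probe sets, 208981_at was higher in 3 of 3 pairs, 1558397_at and 208982_at in 2 and 208983_s_at in 1. FGF2 204422_s_at, under the floor in 143B, was lower in High cells in all 3 pairs (-0.78 to -0.47).

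ANGPTL4 221009_s_at read 9.55, 8.19, 8.50 and 8.81 in MNNG_High against 8.50, 7.88, 7.91 and 8.41 in MNNG_Low. In 143B it read 9.29, 8.48 and 8.73 in High cells against 8.15, 7.74, 8.73, 7.99 and 7.99 in Low cells. The groups overlapped in both lines, yet within tumors the High value was the higher in 4 of 4 MNNG tumors (by 0.30 to 1.04) and in 3 of 3 143B pairs (by 0.53 to 0.74). Probe set 223333_s_at gave 4 of 4 (0.12 to 0.98) and 3 of 3 (0.67 to 0.84). The unpaired differences were 0.59 ± 0.27 in MNNG (limma adjusted p 0.108) and 0.71 ± 0.28 in 143B (0.886). Without the High cells of MNNG-1232 the MNNG difference was called (0.78, 0.0478). With tumor number as a block, ANGPTL4 was called in MNNG, at 0.59 ± 0.13 and an adjusted p of 0.00392, and VEGFA was at 0.60 ± 0.10 and 0.00106, in a fit that called 55.8% of all genes. Neither passed in 143B with the block, at adjusted p of 0.101 for ANGPTL4 and 0.283 for VEGFA. The block fit called 0 of 9 members in 143B (0.0486% of all genes) and 0 of 26 probe sets (0.0268%).

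**Figure D3:**
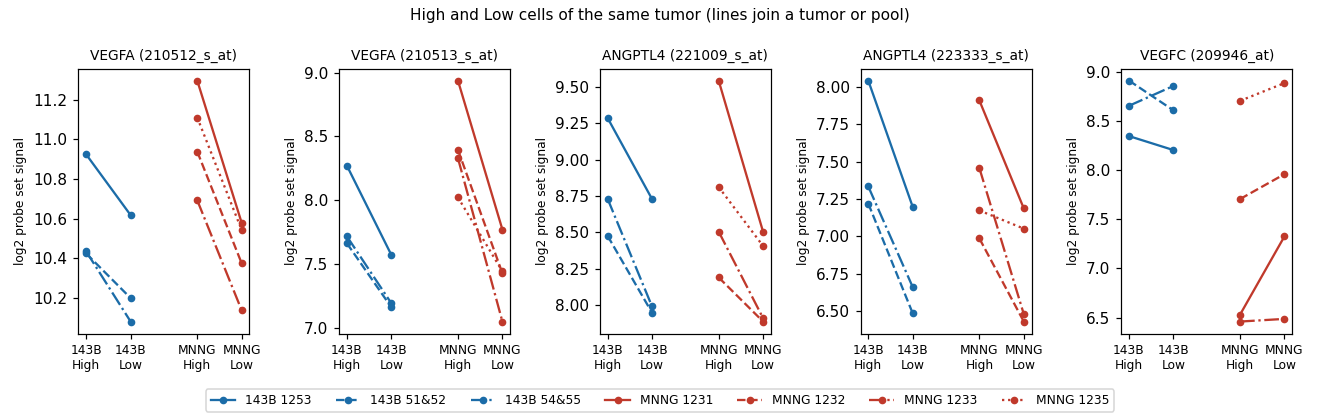
Log2 signal of High cells (left of each pair) and Low cells (right) of the same tumor, joined by lines, for 2 VEGFA, 2 ANGPTL4 and 1 VEGFC probe sets in 3 143B pairs (blue) and 4 MNNG tumors (red). A 143B pool is joined to the mean of its 2 Low arrays. VEGFA and ANGPTL4 lines slope down from High to Low in every tumor, and VEGFC lines of MNNG tumors are lower in High and far apart by tumor.

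VEGFB was higher in MNNG_High (6.77, 6.38, 6.82 and 6.41) than in MNNG_Low (6.22, 6.201, 5.94 and 6.32), without overlap, by 0.43 ± 0.14 (limma adjusted p 0.0363). PECAM1 1559921_at read 6.73, 6.22, 7.09 and 6.31 against 6.13, 6.18, 5.89 and 6.09, a difference of 0.52 ± 0.17 (0.0332), with 1.20 in MNNG-1233 and 0.05 in MNNG-1232. Its other 4 probe sets were not called. ANGPT2 211148_s_at was higher by 0.60 ± 0.21 (0.0444), with both group means under the floor, and the ANGPT2 probe set 205572_at differed by 0.01. At the MNNG_Low level of 211148_s_at, all probe sets had a median difference of 0.23 and a 90th percentile of 0.54. At that of VEGFB and PECAM1 1559921_at these were -0.13 and 0.44, with VEGFB under the 90th percentile and PECAM1 above it.

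VEGFC differed more between MNNG tumors than between fractions of a tumor. It read 6.53, 7.71, 6.46 and 8.71 in MNNG_High against 7.33, 7.96, 6.49 and 8.89 in MNNG_Low for MNNG-1231, MNNG-1232, MNNG-1233 then MNNG-1235. The range across tumors was 2.25 in High and 2.40 in Low cells, whereas High and Low cells of a tumor differed by 0.03 to 0.80. High was the lower in all 4 tumors, and the fitted difference of -0.31 ± 0.47 was not called. FGF2, PGF and TIE1 differed by 0.02 ± 0.24, 0.00 ± 0.20 and 0.09 ± 0.17 in MNNG.

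**Figure D4:**
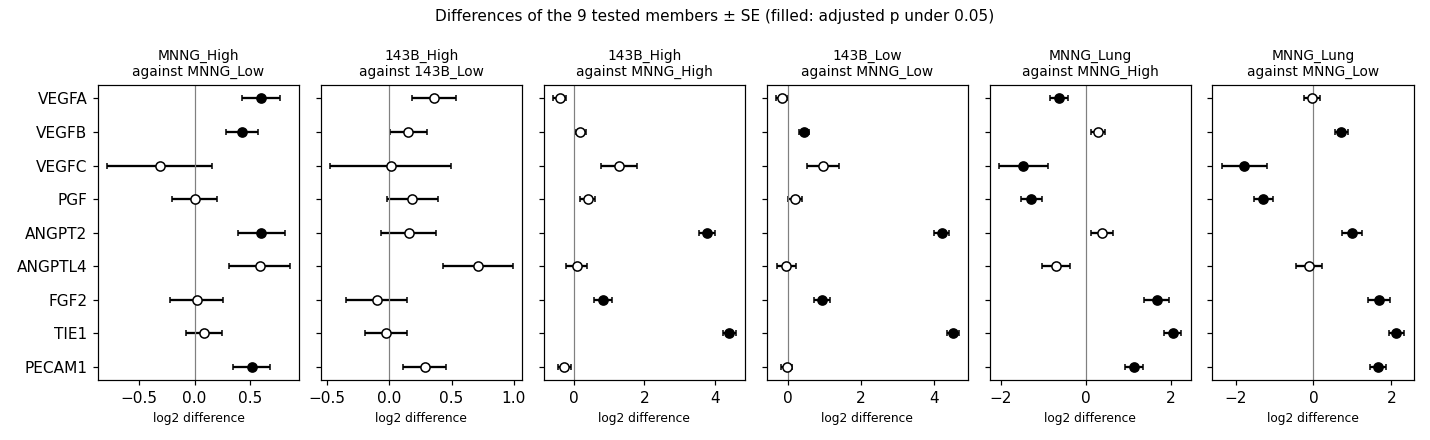
Log2 differences of the 9 tested members (points, ± SE of the limma fit) for 6 comparisons, with the scale differing between panels and filled points marking an adjusted p under 0.05. VEGFA, VEGFB, ANGPT2 and PECAM1 are filled for MNNG_High against MNNG_Low and no member is filled for 143B_High against 143B_Low.

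In counts, 4 of the 9 tested members were called between MNNG_High and MNNG_Low, all higher, where 26.1% of all genes were called, and their median difference was 0.43 against -0.19 over all genes. Of the 26 probe sets, 4 were called (17.4% of all single-gene probe sets), and 8 with the tumor as a block, where 40.7% of all single-gene probe sets were. Between 143B_High and 143B_Low, 0 of 9 members and 0 of 26 probe sets were called by limma, where 0.00694% of genes and 0.0073% of probe sets were. At an unadjusted p under 0.05 there were 1 member gene, ANGPTL4, and 3 member probe sets, beside 745 genes in all. The difference of the fractions' effects between the lines was called for 0 members and 0 probe sets, with backgrounds of 0.00694% and 0.00243%, and 0 members had an unadjusted p under 0.05, so no member was shown to respond unlike in the 2 lines.

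Of the MNNG calls, VEGFA was lost without the High cells of MNNG-1231 (0.51, adjusted p 0.0771), without the Low cells of MNNG-1233 (0.51, 0.0718) and with a term for the date tag (0.43, 0.452), which rests on the Low cells of MNNG-1231 alone. VEGFB was lost in 11 of 19 alternatives, PECAM1 in 13 of 20 and ANGPT2 in 13 of 20. Among single arrays, VEGFB was lost without the High cells of MNNG-1231 or MNNG-1233 or the Low cells of MNNG-1231, MNNG-1232 or MNNG-1233 (limma adjusted p 0.0615 to 0.110). PECAM1 was lost without the High cells of MNNG-1231 or MNNG-1233 or any 1 of the 4 MNNG_Low arrays (0.0504 to 0.115), and ANGPT2 without the High cells of MNNG-1231 or MNNG-1232 or any 1 of the 4 MNNG_Low arrays (0.0610 to 0.160).

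Markers of other cells moved with the same contrast. In MNNG_High against MNNG_Low, 4 of 8 tested macrophage markers were higher, led by AIF1 at 2.34 ± 0.27, and 4 of 4 tested platelet markers, led by GP9 at 0.70 ± 0.15. The log2 of the summed signal was 10.79 to 11.47 in MNNG_High against 10.42 to 10.90 in MNNG_Low for macrophage markers and 8.28 to 8.74 against 7.87 to 8.05 for platelet markers. Of 9 tested pericyte and smooth muscle markers 3 were higher, of 7 lung epithelium markers 2 and of 5 skeletal muscle markers 2, and none of these 5 lists had a member called lower. The endothelial sum was 9.27 to 9.60 against 9.23 to 9.40, with 0 of 9 tested markers called and CDH5, KDR, EMCN and SELE under the floor. The GAPDH signal at the 3' end minus that at the 5' end, a measure of RNA integrity, was 0.50 to 0.75 against 0.34 to 0.41. The part of these measures in the member differences was not tested.

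Beyond the members, HGF (1.02 ± 0.16) and PDGFA (0.50 ± 0.14) were the 2 of 22 tested pro-angiogenic factors called in MNNG_High, both higher. Of 17 inhibitors 2 were higher, CXCL14 at 2.57 ± 0.36 and TNMD at 0.77 ± 0.20. CXCL14, a chemokine that limits endothelial migration, was also higher in 143B_High by 2.65 ± 0.38 (limma adjusted p 0.0194). Of 12 receptors only FGFR2 was called (0.55 ± 0.18). The 24 hypoxia-response genes had 0 higher and 1 lower, ALDOC at -0.47 ± 0.10. Their median difference was -0.04, against -0.19 over all genes. The part of hypoxia in the VEGFA difference was not tested. Among the 13 regulators, HIF1AN, which hydroxylates and restrains hypoxia-inducible factors, was lower (-0.86 ± 0.24) and STAT3 higher (0.57 ± 0.17).

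In the lung metastases, TIE1, PECAM1 and FGF2 were higher than in the bone tumors. VEGFC and PGF were lower, VEGFC by a call lost without the mixture and PGF only without a second quantile normalization. TIE1, FGF2 and PECAM1 were higher than in MNNG_High and in MNNG_Low, by 2.05 and 2.13 for TIE1, 1.67 and 1.69 for FGF2 and 1.13 and 1.65 for PECAM1. The probe sets of VEGFA and of ANGPTL4 did not move alike, and VEGFA 210512_s_at, lower than in MNNG_High and close to MNNG_Low, was higher than both after that normalization. The 2 lung arrays, MNNG-1233 and the mixture, stand behind these values.

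TIE1 204468_s_at read 6.87 and 6.56 in MNNG_Lung (MNNG-1233 and the mixture) against 4.18 to 5.09 in MNNG_High and 4.46 to 4.71 in MNNG_Low. PECAM1 1559921_at read 7.89 and 7.55 against 6.22 to 7.09 and 5.89 to 6.18, and FGF2 204421_s_at read 6.07 and 7.15 against 4.38 to 5.32 and 4.47 to 5.31. The lung arrays lay above every MNNG bone array for these 3 genes. Standard errors were 0.20, 0.20 and 0.29, with limma adjusted p of 1.38e-08, 4.61e-07 and 2.76e-05 against MNNG_Low for TIE1, PECAM1 and FGF2. With array weights FGF2 was not called against MNNG_High (1.36, adjusted p 0.0688). The other FGF2 probe set, 204422_s_at, read 3.67 and 3.77 in MNNG_Lung, under the floor, and differed by -0.40 ± 0.46 from MNNG_High and -0.42 ± 0.46 from MNNG_Low, neither called. Dim probe sets rose on the lung arrays as a rule. Against MNNG_Low, TIE1 204468_s_at exceeded the 90th percentile of its level (2.04), while FGF2 204421_s_at (against 2.04) and PECAM1 1559921_at (against 1.69) did not. TIE1 1560657_at rose by 1.31, where the median was 1.12 and the 90th percentile 1.91. PECAM1 208983_s_at rose by 1.97, above the 1.91 of its level, and the remaining PECAM1 probe sets stayed under theirs. The untested ANGPT1, the agonist of TEK, read 5.73 and 4.66 on 205608_s_at against 3.73 to 4.45 in the bone groups of the line. Its difference of 1.26 from MNNG_Low lay near the median of its level, 1.12.

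VEGFC read 6.45 (MNNG-1233) and 5.32 (the mixture) in MNNG_Lung, and the lowest bone array of the line read 6.46. The lung array of MNNG-1233 lay close to the bone arrays of that tumor, at 6.46 in High and 6.49 in Low cells. The difference was -1.46 ± 0.58 from MNNG_High and -1.78 ± 0.58 from MNNG_Low, and without the mixture it was no longer called, at -0.90 and -1.21. Against MNNG_High it was also lost without the High cells of MNNG-1232 (-1.34, limma adjusted p 0.0569) or MNNG-1235 (-1.01, 0.0854). With array weights both VEGFC calls were lost (-1.82, 0.218 against MNNG_High and -1.92, 0.181 against MNNG_Low). The call against MNNG_Low was also lost with the date tag (-1.44, 0.123) or the GAPDH 3' to 5' difference (-1.41, 0.0560) as a covariate. At the MNNG_Low level of VEGFC, all probe sets had a median difference of -1.11 and a 10th percentile of -3.08. PGF 215179_x_at read 9.15 and 8.23 against 9.74 to 10.26 and 9.59 to 10.19, a difference of -1.28 ± 0.25 from each. VEGFB and ANGPT2 were higher than in MNNG_Low (0.72 ± 0.17 and 0.99 ± 0.26) and were not called against MNNG_High. Without the High cells of MNNG-1231, ANGPT2 was called there too (0.57, limma adjusted p 0.0403). All probe sets at the MNNG_Low level of ANGPT2 211148_s_at had a median difference of 1.25 from MNNG_Low, above that of ANGPT2. At the level of VEGFB the median was 0.12 and the 90th percentile 1.69.

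VEGFA 210512_s_at read 10.59 and 10.15 in MNNG_Lung, against 10.69 to 11.30 in MNNG_High and 10.14 to 10.58 in MNNG_Low. The difference was -0.03 ± 0.21 from MNNG_Low (limma adjusted p 0.880) and -0.64 ± 0.21 from MNNG_High (0.0104). The call against MNNG_High was lost without the mixture (-0.42, 0.144), with the mean over the probe sets (-0.18, 0.420), with array weights (-0.59, 0.313) and with only the compared groups in the fit (-0.64, 0.0711). Probe set 210513_s_at read 8.79 and 8.63 in MNNG_Lung, against MNNG_High arrays of 8.02 to 8.94 and MNNG_Low arrays of 7.05 to 7.77. This probe set was higher than in MNNG_Low by 1.29 ± 0.24 (limma adjusted p 6.00e-05) and not called against MNNG_High (0.29 ± 0.24, 0.266). The differences of 211527_x_at (0.30 ± 0.31) and 212171_x_at (-0.10 ± 0.16) from MNNG_Low were not called.

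ANGPTL4 221009_s_at read 8.35 and 7.77 in MNNG_Lung and differed by -0.12 ± 0.33 from MNNG_Low (limma adjusted p 0.748). Probe set 223333_s_at read 7.50 and 8.10 in MNNG_Lung, against 6.99 to 7.91 in MNNG_High and 6.43 to 7.19 in MNNG_Low, and was higher than in MNNG_Low by 1.01 ± 0.30 (0.00435) and not called against MNNG_High (0.42 ± 0.30, 0.204). The lung arrays thus lay above every MNNG_Low array on 1 of the 2 ANGPTL4 probe sets and on 1 of the 4 VEGFA probe sets.

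Bright probe sets fell on the lung arrays as a rule. Over the 1403 probe sets between 10 and 11 in MNNG_Low, the median difference was -3.97 and the 90th percentile -1.06, and over the 3597 between 8 and 9 they were -2.31 and -0.11. VEGFA 210512_s_at thus lay above the 90th percentile of its level, ANGPTL4 221009_s_at close to it, and PGF 215179_x_at lay between the median and the 90th percentile of its level (-3.23 and -0.83).

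**Figure D5:**
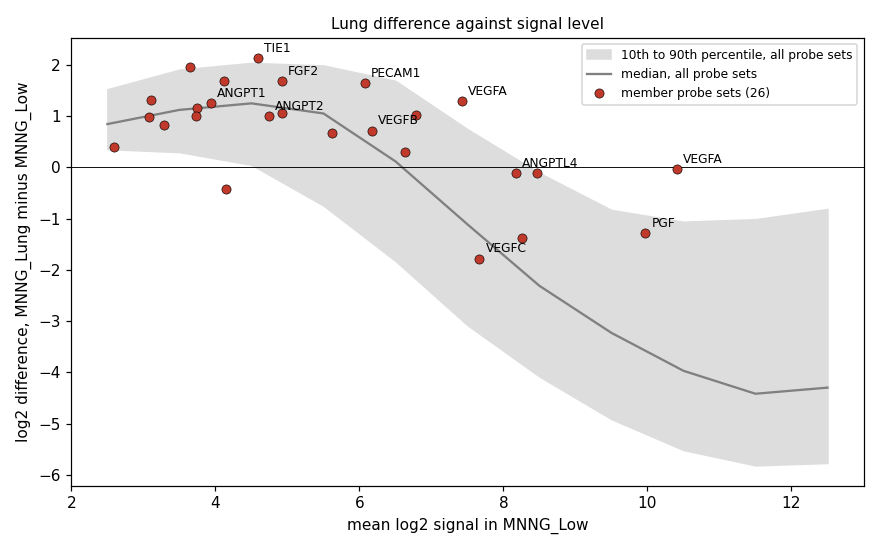
Log2 difference of MNNG_Lung minus MNNG_Low (vertical) against the mean log2 signal in MNNG_Low (horizontal) for the 26 member probe sets (red), with the median (line) and the 10th to 90th percentile (band) of all single-gene probe sets by signal level. Most dim members lie inside the band, and VEGFA 210512_s_at, at 10.41, lies at -0.03 where the median is -3.97 (before the second quantile normalization, which makes it 1.74).

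The lung differences of bright members changed with the scaling of the arrays. After a second quantile normalization, VEGFA was 1.74 higher than in MNNG_Low and 0.91 higher than in MNNG_High, so its direction turned. PGF then differed by 0.49 and 0.23, with limma adjusted p of 0.0639 and 0.374, so its sign turned and its calls were lost. ANGPTL4 became 1.36 higher than in MNNG_Low.

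In counts, 6 of the 9 tested members were called against MNNG_High (3 higher and 3 lower), where 82.4% of all genes were called, and 7 of 9 against MNNG_Low (5 higher and 2 lower), where 87% were. Of the 26 probe sets, 15 were called against MNNG_High (11 higher and 4 lower) and 21 against MNNG_Low (18 higher and 3 lower), beside 79.2% and 84.9% of all single-gene probe sets. The member medians were 0.29 and 0.72, against -0.37 and -0.64 over all genes.

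All 9 tested endothelial markers were higher in MNNG_Lung than in either bone group, led by CD34 at 1.83 ± 0.17 and 2.16 ± 0.17. Of all tested genes, 82.4% were called against MNNG_High and 87% against MNNG_Low. The tested markers had MNNG_Low means of 5.24 to 6.48 and a median difference of 1.28 from MNNG_Low. All probe sets between 5 and 6 in MNNG_Low had a median difference of 1.05 and a 90th percentile of 1.99. Between 6 and 7 these were 0.12 and 1.69. CDH5 averaged 4.62, under the floor, and KDR 4.46, while TEK reached 7.03. The summed endothelial signal was 10.54 to 10.80 against 9.27 to 9.60 in MNNG_High and 9.23 to 9.40 in MNNG_Low. Platelet markers were higher in 4 of 4 and lung epithelium markers in 6 of 7 in each comparison. Macrophage markers were higher in 5 of 8 against MNNG_High and 7 of 8 against MNNG_Low, with 1 lower in each. The macrophage marker LAPTM5 differed by -4.14 ± 0.29 from MNNG_Low. The part of these markers in the TIE1, PECAM1 and FGF2 differences was not tested.

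Of the 12 receptors, 4 were higher and 4 lower in the lung in each comparison. The VEGF co-receptor NRP1 averaged 3.87 in MNNG_Lung against 9.25 in MNNG_High and 9.92 in MNNG_Low, and the integrin ITGAV 5.20 against 10.67 and 11.06. FGFR2 was higher by 1.84 ± 0.22 than in MNNG_Low. Of the 24 hypoxia-response genes, 21 were lower in each comparison and 1 was higher against MNNG_High. BNIP3 fell to 5.10 in MNNG_Lung, against 12.37 in MNNG_High and 12.34 in MNNG_Low. HIF1A averaged 8.82 against 12.43 and 12.43, and EPAS1 5.16 against 9.17 and 9.56. All probe sets between 9 and 10 in MNNG_Low had a median difference of -3.23 from it and a 10th percentile of -4.91. Between 12 and 13 these were -4.30 and -5.77. Against MNNG_Low, HIF1A (-3.62) and EPAS1 (-4.41) lay above the 10th percentile of their level, and NRP1 (-6.05) and BNIP3 (-7.24) below it.

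The genes most like VEGFA across the 18 arrays by Pearson correlation were ANTXR2 (r of 0.85), ANGPTL4 (0.82) and ACTA1 (0.81). After subtracting the group means the r were 0.77, 0.83 and 0.54, so the likeness of VEGFA and ANGPTL4 was also present within groups. For ANGPTL4 the list was VEGFA (0.82), CXCL14 (0.74) and THBS4 (0.73), and for FGF2 it was EBF3 (0.92), COBL (0.92) and NEGR1 (0.90). The arrays share line, fraction and tumor, and no test was made of these values.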

How the data were processed

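RNA of 18 samples was hybridised to Affymetrix human 3' expression arrays. The deposited table holds log2 signals per probe set, for which the submitters' processing notes name RMA. This method corrects background, quantile-normalizes arrays and summarises probes, so a shift common to most genes can be lost. Its version, the arrays it was run on together and the build are not stated in what was used here, and the spreads differ between arrays.

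Genes were named from the platform annotation where a probe set had exactly 1 gene (41097 probe sets, against 1801 with several and 11777 with none). The probe set of highest mean stood for its gene. Groups and tumor numbers came from the titles. Differences were tested with limma 3.58.1 in R 4.3.3, with a mean for each of 5 groups over 18 arrays and Benjamini-Hochberg adjustment at 0.05, over 14418 genes (floor 5.36 on at least 3 arrays) and, with no floor, over 41097 probe sets. The fit was tested on simulated data. ± values are limma standard errors. High and Low arrays share tumors, as may the lung array MNNG-1233, so the 18 arrays are not 18 separate tumors, and their number limits the precision.

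Tumor numbers were taken to pair the High and Low arrays of the same animal, and the short numbers of the 143B pools were matched to tumors by their last digits. Deviations from group means correlated at 0.299 to 0.579 within the 4 MNNG tumors and -0.192 to 0.542 within the 5 143B pairs. Between different tumors they correlated at -0.471 to 0.202 in MNNG and -0.339 to 0.259 in 143B. The pool 143B-51&52 correlated at -0.192 with 143B-1251 and 0.529 with 143B-1252. The pool 143B-54&55 correlated at 0.243 with 143B-1254 and 0.063 with 143B-1255, so the pairing of the pools is less certain. The block fit left out the lung arrays.

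The members and the marker, receptor and pathway lists were chosen with earlier results of these data known. Named genes were all members, up to 4 called genes of smallest p in each list and comparison, and the 3 genes most correlated with VEGFA, ANGPTL4 and FGF2. Figures were drawn with matplotlib 3.10.9 in Python 3.11.15. Alternatives are given in the closing section.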

Additional observations from a re-analysis of the deposited data

Results flagged for a closer look

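Among 78 sets of 4 or 5 arrays (a member probe set within a group), 4 held an array standing far from the rest, or 5.13%, about the 5% that chance gives. ANGPT1 205609_at was lowest in MNNG_High at MNNG-1235, at 3.69, against 4.01 to 4.06 on the other arrays, all under the floor. ANGPT2 211148_s_at was lowest in 143B_Low at 143B-1255, at 8.27, against 9.05 to 9.27. PECAM1 1558397_at was highest in MNNG_Low at MNNG-1235, at 3.26, against 3.01 to 3.03, and PECAM1 208981_at was lowest in 143B_Low at 143B-1254, at 4.75, against 4.93 to 4.97, both under the floor.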

How the results depend on the processing

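Of 1498 member differences recomputed under alternative settings, 1399 kept their side of the threshold, among them 64 that were called in neither setting and changed sign. For MNNG_High against MNNG_Low the number of members called (with the share of all genes called) was 4 in the reported fit (26.1%), 1 after a second quantile normalization (7.36%), 1 after median centring (32.9%), 2 with the mean over probe sets (27.5%), 1 without the _x_at and _s_at probe sets, which leaves fewer genes (28.1%), 1 with only the 2 groups in the fit (16.1%), 0 with a term for the date tag (0.0208%) and 1 with the GAPDH 3' to 5' difference as a covariate (10.7%). Leaving out single arrays gave 0 to 4 for that comparison, 0 to 0 for 143B_High against 143B_Low and for the difference between lines, 3 to 5 for 143B_Low against MNNG_Low, 2 to 4 for 143B_High against MNNG_High, 6 to 7 for MNNG_Lung against MNNG_Low and 4 to 7 for MNNG_Lung against MNNG_High. For 143B_Low against MNNG_Low the second quantile normalization gave 2 (22.4%), and leaving out _x_at and _s_at probe sets gave 1 (28.4%). Leaving out these probe sets gave 1 for 143B_High against MNNG_High (35.2%), 3 for MNNG_Lung against MNNG_Low (86.6%) and 3 against MNNG_High (81.3%). Array weights gave 6 (53.3%), 4 (69.7%) and 3 (61.9%) for those comparisons. With the tumor as a replicate block, an alternative added to the probe set fit after the data were seen, 8 probe sets were called in MNNG_High against MNNG_Low instead of 4, beside 40.7% of all probe sets instead of 17.4%, and at the gene level the block changed no other member call than that of ANGPTL4. After the second quantile normalization VEGFA (1.74 and 0.91 against MNNG_Low and MNNG_High) and ANGPTL4 (1.36 against MNNG_Low) turned higher in the lung, and PGF (0.49 and 0.23) changed sign without being called. The cause was not tested. That setting moved the median difference of all genes to 0.01 for MNNG_High against MNNG_Low, where the reported fit has -0.19, and to -0.12 for MNNG_Lung against MNNG_Low, where it has -0.64, and its MNNG_High calls split into 766 higher and 283 lower, where the reported fit has 1532 and 2229. Signals under the floor limit ANGPT1, and ANGPT2, TIE1 and FGF2 in MNNG.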

Other observations

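VEGFC divided the MNNG tumors, and other genes divided them alike. Over the 8 MNNG bone arrays, in a search added after the values were seen, the tested genes most correlated with VEGFC were DKK2 (r of 0.997), HAS2 (0.996), TRPA1 (0.99), SDR16C5 (0.99) and FAM13A-AS1 (0.98). DKK2 encodes a Wnt pathway modulator and HAS2 a hyaluronan synthase. The 8 arrays come from 4 tumors, each counted in High and Low cells. Over the 8 143B bone arrays the same genes correlated with VEGFC at 0.19, -0.25, -0.59, -0.51 and -0.11.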
